A study of Mus musculus with 8 samples.

Results

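Cd86 and 9 further genes, all but Cd83 from the B7 and CD28 families, were followed across 8 arrays. The set held the ligand genes Cd86, Cd80, Icosl, Cd274 and Pdcd1lg2, the receptor genes Cd28, Ctla4, Icos and Pdcd1, and the activation marker Cd83. These members are 10 of 12393 genes with a symbol of their own on the array and were read by 17 of 22626 probe sets, every probe set with a single member symbol in the platform annotation. The set was chosen from earlier results on these arrays, in which Cd86 and Cd83 were higher in the CD44hi than in the CD44lo subpopulation. The differences between the subpopulations below are therefore a description of the members, without a test.

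The arrays come from a study of stable lymphoma lines of mouse T cells deficient in Snf5 (also called Smarcb1), whose product belongs to the core of SWI/SNF, a chromatin remodeller. RNA of purified CD44hi cells (4 arrays) and CD44lo cells (4 arrays) was hybridised to Affymetrix Mouse 430A 2.0 arrays. Snf5 deficiency was common to both subpopulations, and no treatment or time is given in the labels. The labels do not say how many lines or cultures the replicates stand for, so the spread between arrays may be technical.

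T cells need a signal besides the antigen receptor to respond fully. CD86 (B7-2) and CD80 (B7-1), usually carried by dendritic cells, macrophages and B cells, give it by binding CD28, while CTLA-4 binds the same ligands more tightly and restrains the response. PD-1, the product of Pdcd1, is an inhibitory receptor for PD-L1 (Cd274) and PD-L2 (Pdcd1lg2), and ICOS, induced on activated T cells, binds ICOSL. CD83 is a surface glycoprotein of mature dendritic cells and activated lymphocytes.

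The PD-1 receptor gene and its 2 ligand genes are shown by the 250 bases before their start in RefSeq (GRCm38.p6), since they are one receptor axis whose members gave different patterns on the arrays. Capitals mark matches, on either strand, to a motif of STAT factors (TTCNNNGAA), one of interferon regulatory factors (GAAANNGAA) and the kappaB consensus. Cd274 and Pdcd1lg2 are neighbouring protein-coding genes there. The table holds 6 of the 10 members, without Cd86, Cd28, Icos and Cd83.
Cd274, chr19:29367188-29367437, plus strand: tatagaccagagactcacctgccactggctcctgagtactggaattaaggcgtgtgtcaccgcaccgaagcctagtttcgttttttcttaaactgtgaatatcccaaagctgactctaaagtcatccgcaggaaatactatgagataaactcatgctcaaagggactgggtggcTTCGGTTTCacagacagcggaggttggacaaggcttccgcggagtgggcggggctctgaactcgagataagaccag
Pdcd1lg2, chr19:29410669-29410918, plus strand: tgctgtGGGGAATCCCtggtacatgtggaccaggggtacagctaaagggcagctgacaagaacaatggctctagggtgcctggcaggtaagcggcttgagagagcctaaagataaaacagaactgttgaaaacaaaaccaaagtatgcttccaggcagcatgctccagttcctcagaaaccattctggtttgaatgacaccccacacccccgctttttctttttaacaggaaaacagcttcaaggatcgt
Pdcd1, chr1:94052554-94052803, minus strand: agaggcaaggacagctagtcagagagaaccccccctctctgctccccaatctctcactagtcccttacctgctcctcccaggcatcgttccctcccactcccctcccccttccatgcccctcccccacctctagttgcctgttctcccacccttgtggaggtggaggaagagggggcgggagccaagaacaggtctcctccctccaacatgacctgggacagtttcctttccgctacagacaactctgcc
The Cd274 window holds 1 interferon regulatory factor match, the Pdcd1lg2 window 1 kappaB match and the Pdcd1 window none of the 3 motifs. Of 32851 windows in the table, 7.02% hold the STAT motif, 7.13% the interferon regulatory factor motif and 7.25% the kappaB consensus.

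Values are log2 intensity. The subpopulations were compared within a probe set, or in sums over the same probe sets. Levels of different genes were only set against control probe sets. Bacterial control probe sets with no mouse target, 27 in number, had means of 3.63 to 5.70 over the arrays and serve as a guide to background. The sorted marker followed its labels: its 2 probe sets, for Cd44, averaged 12.18 and 11.44 in the CD44hi arrays, against 4.19 and 5.55 in CD44lo. Of 9 T cell markers measured, Cd3d, Cd3e, Cd3g, Cd247, Cd8a and Cd8b1 had means of at least 12.83 in both subpopulations. Thy1 lay among the controls (4.47 in CD44hi and 4.55 in CD44lo), and Cd2 (5.92 in CD44hi, 5.68 in CD44lo) and Cd6 (5.89 in CD44hi, 5.70 in CD44lo) lay close to them. The summed intensity of the 9 markers was 75669 to 78043 in CD44hi and 76849 to 79290 in CD44lo on the linear scale. In the 3' to 5' ratio of Gapdh, a sign of RNA quality, the subpopulations differed: 0.82 ± 0.05 (SD, n = 4) on the log2 scale in CD44hi, against 0.70 ± 0.04 (SD, n = 4) in CD44lo. An exact permutation test, two-sided, gave p = 0.0286, the smallest that 70 assignments allow. With arrays exchanged only within a replicate number the exact p was 0.125, the smallest that 16 assignments allow, and the ratio was higher in CD44hi at 4 of 4 numbers. Its part in the results was not tested.

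**Figure D1:**
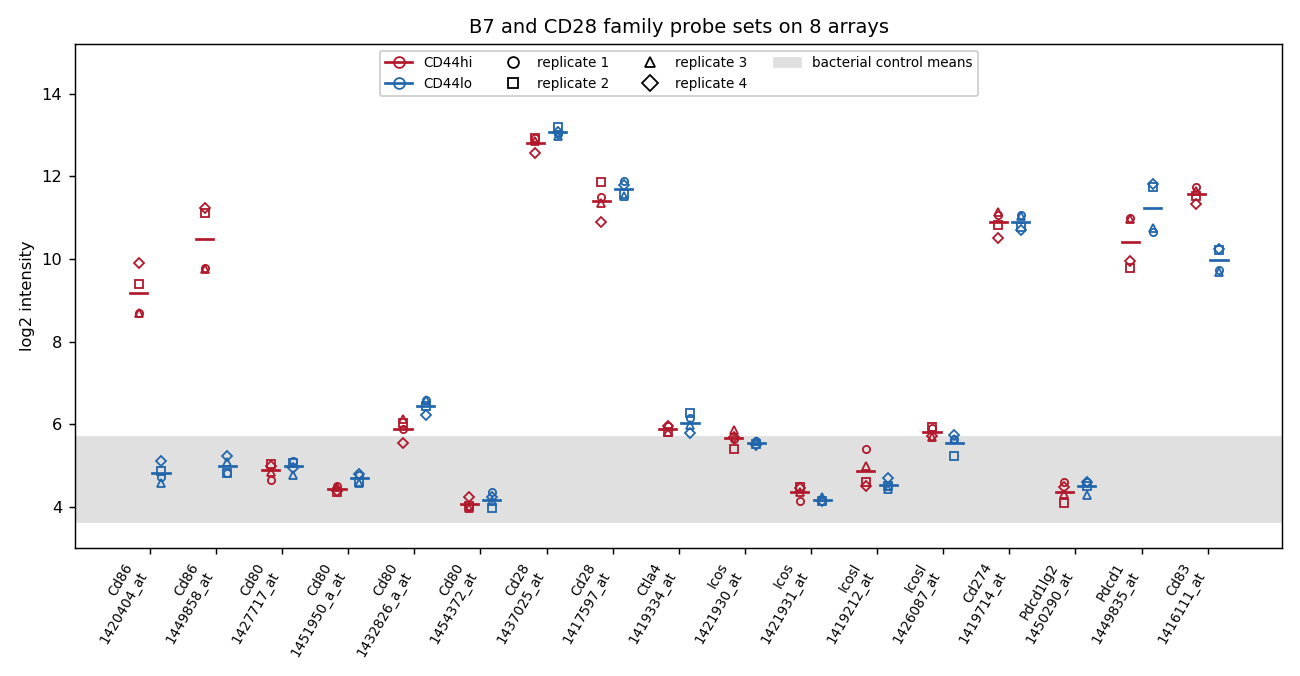
Log2 intensity (vertical axis) of the 17 probe sets (horizontal axis) on each array, CD44hi in red and CD44lo in blue, with a symbol for each replicate number and a line at each group mean. The grey band spans the means of the bacterial control probe sets, 3.63 to 5.70; both Cd86 probe sets lie inside it in CD44lo and above it in CD44hi.

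Among the ligands, Cd86 stood far apart between the subpopulations. Its brighter probe set, 1449858_at, read 9.77, 11.10, 9.76 and 11.24 in CD44hi replicates 1 to 4, against 4.81, 4.83, 5.08 and 5.23 in CD44lo. The lowest CD44hi array was thus far above the highest CD44lo array. The difference of the means was 5.48 on the log2 scale (SE 0.35, n = 4 each), or 44.7-fold, and 6 probe sets of the whole array, this one included, had a difference at least as large. The second probe set, 1420404_at, read 8.69, 9.39, 8.70 and 9.91 in CD44hi, against 4.71, 4.87, 4.58 and 5.12 in CD44lo, a difference of 4.35 (SE 0.27) or 20.4-fold. All CD44lo values of both probe sets lay within the range of the bacterial controls. The size of each fold is therefore uncertain, since it is taken against a level near background.

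The CD44hi arrays themselves did not carry Cd86 evenly. Replicates 2 and 4 read 11.10 and 11.24 with probe set 1449858_at, above 9.77 and 9.76 in replicates 1 and 3, and the other probe set showed the same order. The difference at each replicate number was 4.96, 6.27, 4.69 and 6.01 for numbers 1 to 4. The 3' to 5' ratio of Actb also went with the number. It was 0.47, 0.79, 0.53 and 0.71 in the CD44hi arrays, against 0.38, 0.61, 0.44 and 0.56 in CD44lo. Its part in the Cd86 values was not tested, and no batch is named in the labels.

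Cd80, which codes for the other CD28 ligand, did not share this pattern. Its brightest probe set, 1432826_a_at, read 5.88, 6.02, 6.12 and 5.55 in CD44hi, against 6.58, 6.43, 6.58 and 6.23 in CD44lo. All 4 CD44hi arrays were below all 4 CD44lo arrays, by a mean of 0.56 (log2 difference -0.56, SE 0.14), and the sign held at each replicate number (-0.70, -0.40, -0.46 and -0.68). The remaining 3 Cd80 probe sets had means between 4.06 and 4.88 in CD44hi and between 4.17 and 4.98 in CD44lo, inside the control range. Of these, 1451950_a_at kept the subpopulations apart (4.43 ± 0.08 in CD44hi, against 4.69 ± 0.12 in CD44lo, as mean ± SD of 4 arrays), and the other 2 overlapped. With 3 of the 4 probe sets inside the control range, the Cd80 difference rests on 1432826_a_at.

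The PD-1 ligands differed from each other in level relative to the controls. Cd274, which codes for PD-L1, read 11.07, 10.83, 11.14 and 10.51 in CD44hi, against 11.05, 10.77, 11.03 and 10.70 in CD44lo. The arrays overlapped, the means were 10.89 in each subpopulation, and the values were well above the controls. Pdcd1lg2, which codes for PD-L2, had 4.60, 4.10, 4.32 and 4.47 in CD44hi, against 4.60, 4.50, 4.29 and 4.60 in CD44lo, all within the control range.

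Icosl, the gene of the ICOS ligand, was near background as well. Probe set 1426087_at averaged 5.81 ± 0.13 in CD44hi, against 5.55 ± 0.22 in CD44lo, and 1419212_at averaged 4.87 ± 0.40 in CD44hi, against 4.53 ± 0.12 in CD44lo (SD, n = 4 each). Both overlapped between the subpopulations. CD44hi replicates 1 and 3 of 1419212_at, at 5.39 and 5.0, were above the other 6 arrays, which lay between 4.42 and 4.70.

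Of the receptors, Cd28 was bright on every array. Probe set 1437025_at read 12.93, 12.92, 12.86 and 12.56 in CD44hi, against 13.03, 13.18, 12.97 and 13.08 in CD44lo, so that the CD44hi arrays were below the CD44lo arrays by a mean of 0.25 (log2 difference -0.25, SE 0.10). CD44hi replicate 4 was the lowest array with both Cd28 probe sets. The other one, 1417597_at, read 11.49, 11.87, 11.34 and 10.90 in CD44hi, against 11.88, 11.57, 11.53 and 11.78 in CD44lo, and overlapped (log2 difference -0.29, SE 0.19).

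Pdcd1, the gene of PD-1, changed the sign of its difference with the replicate number. It read 11.00, 9.77, 10.96 and 9.94 in CD44hi, against 10.65, 11.75, 10.75 and 11.81 in CD44lo. At numbers 1 and 3 it was higher in CD44hi, by 0.35 and 0.21, and at numbers 2 and 4 it was lower, with log2 differences of -1.99 and -1.87. The difference of the means, -0.82 (SE 0.38), thus describes neither set of arrays. In CD44lo the arrays numbered 2 and 4 were the high ones, and in CD44hi they were the low ones. The labels do not say what the numbers stand for.

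**Figure D2:**
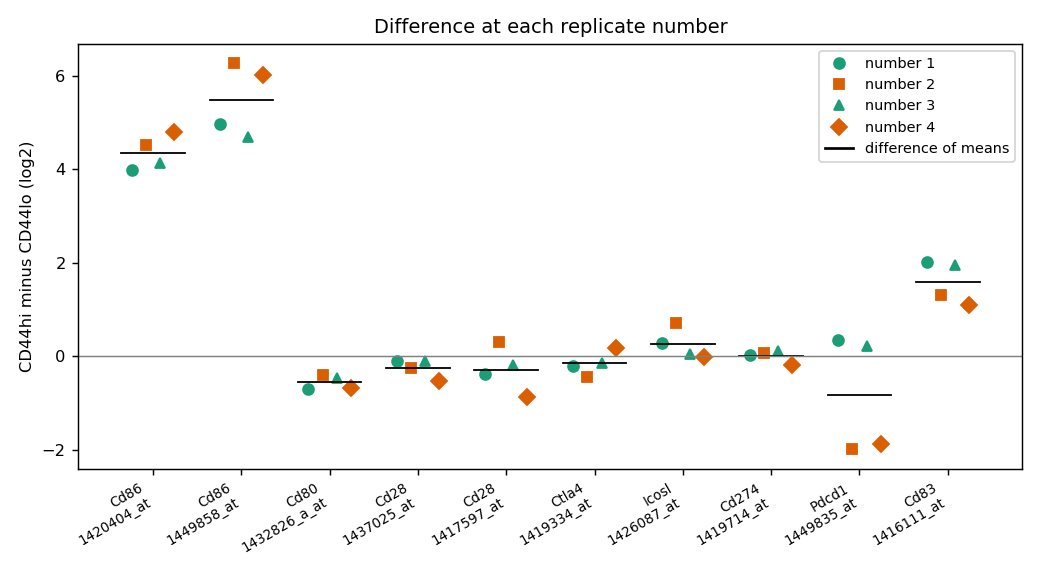
CD44hi minus CD44lo log2 intensity (vertical axis) at each replicate number for the 10 member probe sets above the control range in at least 1 subpopulation (horizontal axis), with green for numbers 1 and 3, orange for 2 and 4, and a line at the difference of the group means. Both Cd86 probe sets and Cd83 lie above 0 at every number, Cd80 lies below, and Pdcd1 lies at 0.35 and 0.21 for numbers 1 and 3 and at -1.99 and -1.87 for numbers 2 and 4.

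The other receptors of the CD28 family were dim. Ctla4 read 5.95, 5.82, 5.82 and 5.95 in CD44hi, against 6.15, 6.27, 5.97 and 5.78 in CD44lo, just above the controls and with overlap. Icos averaged 5.66 ± 0.19 in CD44hi and 5.55 ± 0.05 in CD44lo with probe set 1421930_at, and 4.36 ± 0.16 in CD44hi, against 4.17 ± 0.05 in CD44lo, with 1421931_at (SD, n = 4 arrays), inside the control range. Cd28, Ctla4 and Icos are consecutive protein-coding genes in the RefSeq assembly, and of these neighbours Cd28 was far above the controls while the others lay near or within them.

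Cd83 was high in both subpopulations and higher in CD44hi. Its probe set, 1416111_at, read 11.75, 11.53, 11.64 and 11.32 in CD44hi, against 9.74, 10.22, 9.68 and 10.23 in CD44lo. No CD44lo array reached the lowest CD44hi array, and the CD44lo values were far above the controls, so this fold is not set by background. The difference was 1.59 (SE 0.16, n = 4 each), or 3.02-fold, and 62 of 12393 genes, Cd83 included, had a difference at least as large at their brightest probe set. It was 2.02, 1.31, 1.95 and 1.09 at numbers 1 to 4, larger at numbers 1 and 3, while the Cd86 difference was larger at numbers 2 and 4.

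In all, 3 of the 17 probe sets (both of Cd86 and that of Cd83) had every CD44hi array above every CD44lo array, as had 4.73% of all probe sets. In 3 others (2 of Cd80 and 1 of Cd28) every CD44hi array was below, as in 4.61% of all. The remaining 11 overlapped, and 7 had means within the control range in both subpopulations. The limma fit over all probe sets called 3.12% of them at an adjusted p under 0.05, and among the members the 2 of Cd86 and that of Cd83. With the replicate number as a block it called 4 members, the same 3 and Cd80 1432826_a_at. Calls over all probe sets went up as well, from 371 higher and 334 lower to 571 and 594. As the members were chosen by this contrast, nothing is read from the member counts. The median difference of the 17 was -0.09, against -0.0011 for all probe sets.

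The probe sets of other genes whose profile over the 8 arrays was nearest to that of Cd86 1449858_at were sought by the root mean square distance of log2 values, each centred on its own mean. They were 2 of Ebf1, which codes for a factor needed in early B cell development, at distances of 0.378 and 0.461, and then Cplx2 (0.547), Cd44 (0.550) and the metalloproteinase gene Adamts1 (0.569). The other Cd86 probe set was at 0.611. Like Cd86, Ebf1 1448293_at was higher in CD44hi replicates 2 and 4 (10.45 and 9.98) than in 1 and 3 (9.69 and 9.22). Nearest to Cd83 were Med12l (0.116), Gramd4 (0.183), Stk39 (0.187), Vav3 (0.199), and Arhgef10 (0.200). These genes were picked by likeness, so their differences are a description.

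**Figure D3:**
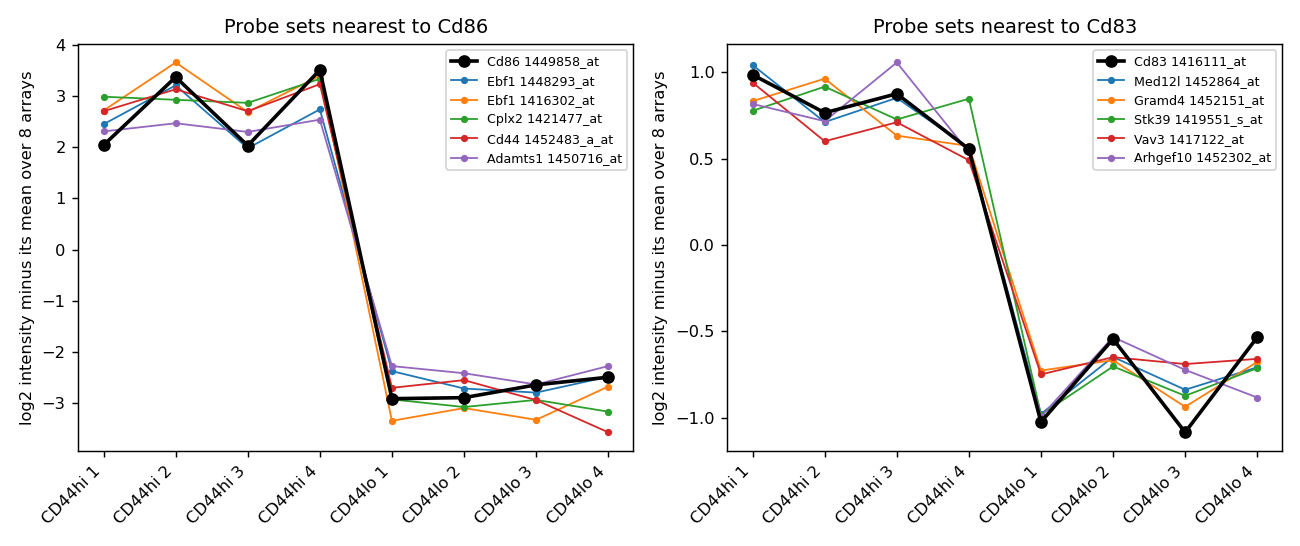
Log2 intensity minus its mean over the 8 arrays (vertical axis) on each array (horizontal axis), for Cd86 (left) and Cd83 (right) in black and the 5 nearest probe sets of other genes in colour. Ebf1 1448293_at, at a distance of 0.378, is the nearest to Cd86, and Med12l, at 0.116, the nearest to Cd83.

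Genes around the costimulatory pathway were taken from 6 lists, without the members, each at its brightest probe set. Of 80 measured genes, 5 rose in CD44hi, 2 fell and 73 did not pass the limma test (Benjamini-Hochberg over all probe sets, threshold 0.05). Over all 12393 genes 1.88% were called higher and 1.63% lower. The median difference of the 80 was 0.006 on the log2 scale, against -0.0001 for all genes. With the replicate number as a block 7 rose and 2 fell. The block also raised the calls over all probe sets, from 371 higher and 334 lower to 571 and 594. An unadjusted p under 0.05 (limma) was found for 17 of the 80, or 22 with the block, against 12.4% of all genes without the block. Without the block they were 3 of 18 genes of CD28 signalling, 1 of 11 of inhibitory signalling and 6 of 19 of B7 ligand induction. The rest were 5 of 17 genes induced by costimulation and 2 of 10 listed with other inhibitory receptors.

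The calls in CD28 signalling went both ways, 1 up and 1 down of 18 genes (median log2 difference -0.026). Map3k8, a kinase that acts in CD28 and NF-kappaB signalling, read 9.01, 8.35, 9.0 and 8.26 in CD44hi, against 7.38, 7.70, 7.56 and 7.80 in CD44lo. It rose by 1.05 (SE 0.19, limma adjusted p = 0.0207) and did not pass without CD44hi replicate 3 or CD44lo replicate 1, 2 or 3 (limma adjusted p = 0.0536 to 0.0725). Vav1, an exchange factor phosphorylated after CD28 binding, read 10.06, 10.28, 10.21 and 10.85 in CD44hi, against 11.11, 11.20, 11.12 and 11.35 in CD44lo. It fell by 0.85 (SE 0.16, limma adjusted p = 0.0233). The call was lost without any 1 array except CD44hi replicate 4 (limma adjusted p = 0.0553 to 0.0837), although the subpopulations did not overlap. Zap70 and Akt1 had differences of -0.45 and -0.39 and did not pass.

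Of 11 genes of inhibitory signalling downstream of CTLA-4 and PD-1, Ptpn6, the gene of the phosphatase SHP-1, fell and none rose (median -0.072). Ptpn6 read 10.25, 10.07, 10.30 and 10.48 in CD44hi, against 11.00, 10.84, 10.95 and 10.82 in CD44lo, a fall of 0.63 (SE 0.10, limma adjusted p = 0.00965), and its other probe set had a difference of -0.36. With arrays numbered 2 and 4 alone Ptpn6 did not pass (log2 difference -0.55, limma adjusted p = 0.175). Ptpn11, the gene of SHP-2, which PD-1 recruits, was at 13.52 in CD44hi and 13.64 in CD44lo with its brightest probe set and did not pass. The differences of its 3 probe sets ran from -0.50 to -0.12.

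Among 19 genes that act in the induction of B7 ligands, 1 rose and none fell (median 0.046). Rel, the gene of the NF-kappaB subunit c-Rel, read 9.31, 10.02, 9.35 and 9.83 in CD44hi, against 8.71, 8.61, 8.80 and 8.52 in CD44lo. It rose by 0.97 (SE 0.17, limma adjusted p = 0.0142), with replicates 2 and 4 the highest in CD44hi, and did not pass without CD44lo replicate 2 or 4 (limma adjusted p = 0.0523 and 0.0562). The subunit genes Relb and Nfkb2 had differences of 0.45 and 0.42 and did not pass. Ifngr2, a chain of the interferon gamma receptor, differed by 0.52 and did not pass (limma adjusted p = 0.0634), but did with the replicate block (0.0102) and with array weights (0.0301).

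Of 17 genes induced by costimulation 3 rose and none fell (median 0.141). Tnfrsf4, the gene of the costimulatory receptor OX40, read 13.31, 13.26, 13.22 and 13.33 in CD44hi, against 11.97, 11.61, 11.90 and 11.82 in CD44lo, a rise of 1.46 (SE 0.09, limma adjusted p = 4.46e-05). Tnfrsf18 (GITR) read 12.01, 12.13, 11.93 and 12.03 in CD44hi, against 11.12, 10.82, 11.11 and 10.89 in CD44lo. GITR is a costimulatory receptor too, and its gene rose by 1.04 (SE 0.09, limma adjusted p = 0.000384). The CD44hi arrays lay close together for both genes and far from the CD44lo arrays. Bcl2l1, the gene of Bcl-xL, which protects cells from apoptosis, rose by 0.70 with its brightest probe set (SE 0.07, limma adjusted p = 0.000889), and the lowest of its 4 probe sets differed by 0.13. Ifng, the gene of interferon gamma, read 12.35, 12.93, 12.33 and 12.95 in CD44hi, against 11.94, 12.21, 11.93 and 12.12 in CD44lo. It did not pass (log2 difference 0.59, limma adjusted p = 0.124) but did with the block (limma adjusted p = 0.0231).

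**Figure D4:**
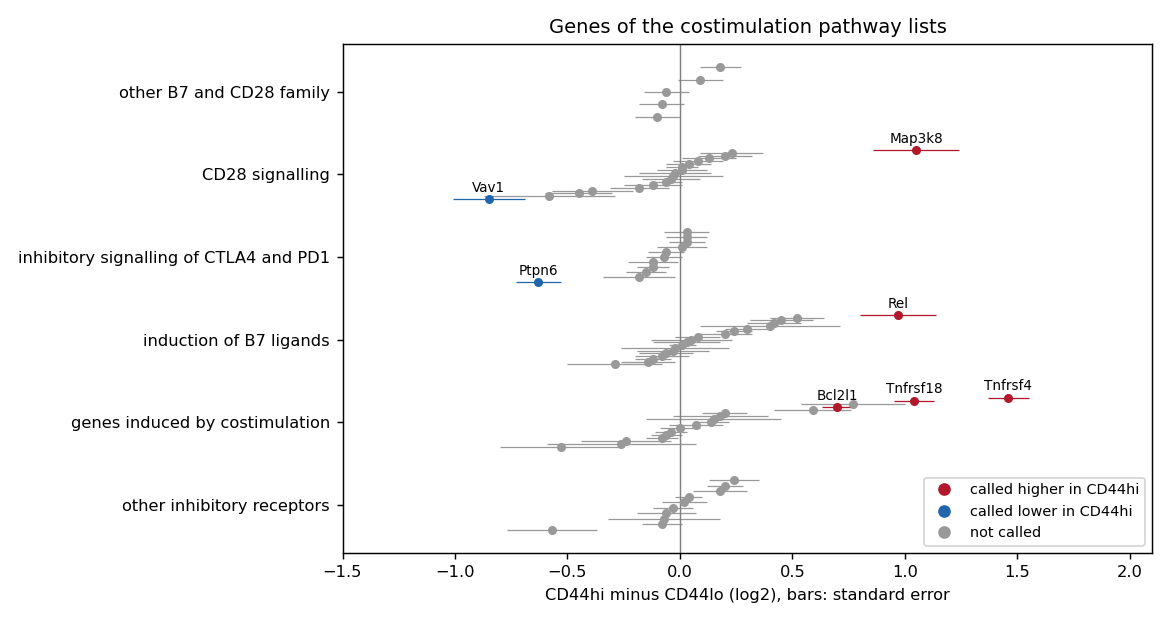
CD44hi minus CD44lo log2 intensity (horizontal axis) with its standard error for the measured genes of the 6 pathway lists (rows), each at its brightest probe set. Red marks the 5 genes called higher in CD44hi, blue the 2 called lower, and grey the 73 not called.

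The other 2 lists had no call by limma. The first held 5 further genes measured around the B7 and CD28 families, not all of them family members. Vsir, which codes for the inhibitory ligand VISTA, was at 10.22 ± 0.13 in CD44hi and 10.04 ± 0.06 in CD44lo. Cd276 lay within the control range, and Tnfrsf14 lay just above it. None of the 5 had an unadjusted p under 0.05, with or without the replicate block. Among 10 genes listed with other inhibitory receptors were Cd244a (-0.57), Cd200r1 (0.24), Klrg1 (0.18) and Entpd1 (0.20), which codes for an enzyme. Not all of the 10 are receptor genes. Of them, 2 had an unadjusted p under 0.05 (limma), or 3 with the block, and the list median was -0.001. Over all genes 12.4% had an unadjusted p under 0.05 without the block.

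Cells that normally carry CD86 were looked for by their markers beside these results. None of 7 dendritic cell markers was called (limma; 1 had an unadjusted p under 0.05), and their summed intensity was 236 to 293 in CD44hi and 228 to 293 in CD44lo on the linear scale. Itgax was at 4.64 in CD44hi and 4.62 in CD44lo, within the controls. Batf3, which codes for a transcription factor of dendritic cells and activated T cells, lay above them. It read 6.10, 6.35, 5.95 and 6.37 in CD44hi, with replicates 2 and 4 the highest as for Cd86, against 5.63, 5.84, 5.90 and 5.95 in CD44lo, and did not pass (log2 difference 0.36, limma adjusted p = 0.206). Zbtb46 lay above the controls too, with a difference of -0.18. It read 5.58, 6.47, 5.73 and 6.29 in CD44hi, against 5.88, 6.21, 5.88 and 6.80 in CD44lo, so replicates 2 and 4 were the highest in both. The other 5 dendritic cell markers lay within the controls, and the list median was -0.02. Of 10 macrophage and monocyte markers none was called (1 with an unadjusted p under 0.05), with sums of 497 to 1478 in CD44hi and 514 to 1087 in CD44lo, and 9 of them lay within the controls in both, Csf1r (5.51 in CD44hi, 5.44 in CD44lo) and Lyz2 (5.30 in CD44hi, 5.04 in CD44lo) included. The exception, Cd68, set the sums. It read 8.01, 10.23, 8.20 and 10.29 in CD44hi, against 8.20, 9.75, 8.23 and 9.76 in CD44lo, so it was high at numbers 2 and 4 in both subpopulations, as Cd86 was in CD44hi. The part of Cd68-expressing cells in the Cd86 values was not tested. Odd and even numbered arrays also stood apart over all probe sets, so this order is not particular to these markers. With the replicate block Ctss passed (log2 difference 0.51, limma adjusted p = 0.0362), at 4.38 in CD44hi and 3.86 in CD44lo.

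Of 11 B cell markers 3 had an unadjusted p under 0.05 (limma), or 4 with the replicate block, against 12.4% of all genes without the block. Ebf1 was the 1 called gene of the 11, and it set their sums of 3404 to 6113 in CD44hi and 479 to 545 in CD44lo. Without it the sums were 531 to 741 in CD44hi and 461 to 503 in CD44lo, so the sum of the 10 others was also higher in every CD44hi array. Vpreb1, the gene of a chain of the pre-B cell receptor, was at 7.86 ± 0.29 in CD44hi and 7.26 ± 0.18 in CD44lo, and Cr2, the gene of a complement receptor, at 6.67 ± 0.45 in CD44hi and 6.32 ± 0.17 in CD44lo (SD, 4 arrays). Neither passed, and Cd79a, Cd22 and Blk had differences below 0. Of the 11, 8 lay within the controls in both, among them Cd79a (5.32 in CD44hi, 5.49 in CD44lo) and Cd79b (4.96 in CD44hi, 4.75 in CD44lo). Ms4a1, the gene of CD20, read 4.39, 5.33, 4.25 and 6.01 in CD44hi, against 3.71, 3.94, 3.63 and 3.44 in CD44lo, with replicates 2 and 4 the highest as for Cd86, and did not pass (limma adjusted p = 0.110). Both Vpreb1 and Ms4a1 had every CD44hi array above every CD44lo array, as had 4.73% of all probe sets. None of 6 class II genes was called or had an unadjusted p under 0.05, with sums of 1067 to 1344 in CD44hi and 936 to 1077 in CD44lo. H2-DMa lay well above the controls. It read 9.32, 9.76, 9.32 and 9.84 in CD44hi, with replicates 2 and 4 the highest, against 9.37, 9.15, 9.38 and 9.34 in CD44lo. H2-Aa was at 5.66 in CD44hi and 5.44 in CD44lo, and H2-Ab1 read 6.25, 7.23, 6.20 and 7.32 in CD44hi, against 7.21, 6.80, 6.97 and 6.68 in CD44lo. In CD44hi H2-Ab1 was high at numbers 2 and 4, as Cd86 was, and its difference was -0.96, 0.43, -0.77 and 0.64 at numbers 1 to 4. Cd74 read 7.67, 6.47, 7.74 and 6.50 in CD44hi, with replicates 1 and 3 the highest, against 6.73, 6.46, 6.87 and 6.66 in CD44lo. As odd and even arrays stood apart over all probe sets, an order shared with Cd86 in CD44hi is not particular to these genes. In sorted populations a few strongly expressing cells and a low level in many cells cannot be told apart.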

How the data were processed

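RNA of 4 CD44hi and 4 CD44lo samples was hybridised to 1-colour arrays, and group and replicate number were taken from the titles. The deposited values are intensities. Per the labels' protocols, the authors preprocessed the scans by RMA (Robust Multichip Average), of which the version and options are not given in the sources consulted. Deposited intensities ranged over 7.61 to 36128 (array medians 320.3 to 339.1), were read as linear and were turned to log2 with no pseudocount. RMA shrinks differences near background, and precision is limited by how few arrays there are.

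Of 22690 probe sets 64 controls were set aside, 20380 of the rest carry 1 gene symbol, 691 several and 1555 none. Of the symbols, 20351 were found by gene identifier in RefSeq (GRCm38.p6) and 0 changed. Levels of a pathway or marker gene are those of its probe set with the highest mean.

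The groups were compared over all 22626 probe sets in limma (version 3.58.1, under R 4.3.3) by lmFit and eBayes, without covariates, and p-values were adjusted by Benjamini-Hochberg. The exact permutation test used scipy 1.17.1. The fit was tested on simulated data. After subtraction of the group mean, a CD44hi array and the CD44lo array of its number correlated over probe sets at 0.572, 0.392, 0.540 and 0.541 for numbers 1 to 4. The differences at each number and the block take arrays of 1 number as pairs, on the values and not the labels. The main fit does not. Arrays of different number that are both odd or both even correlated at 0.521, 0.454, 0.436 and 0.371. An odd and an even array correlated at -0.364 to -0.582. CD44lo replicate 2 correlated better with CD44hi replicate 4 (0.436) than with CD44hi replicate 2 (0.392), so the number does not mark a pair there. The block is an alternative fit, given beside results it changes.

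The members and lists were chosen with earlier results of these data known. Genes named are the members, up to 4 genes of each pathway list by smallest p and called ones up to 6, defining markers and called ones, Cd44, and the 5 probe sets nearest to Cd86 and to Cd83. Thy1, Cd2, Cd6, Cd68, Batf3, Zbtb46, Vpreb1, Cr2, Cd22, Blk, H2-DMa, Cd3d, Cd3g, Cd247, Cd8b1 and Ctss, and the neighbouring genes in the closing section, were named after their values were seen. Alternatives were other normalization, centring and variance models, array weights, the block, subsets of arrays, a filter on dim probe sets, another threshold and other probe sets. 19 of 99 listed pathway genes were not analysed here.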

Additional observations from a re-analysis of the deposited data

Results flagged for a closer look

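Of 128 groups of 4 values examined, 1 had an array far from the others: Klrg1, an inhibitory receptor gene of the pathway lists, was at 4.41 in CD44lo replicate 2 and at 4.83 to 4.87 in the other CD44lo arrays, all within the bacterial control range. Chance sets an array apart in about 1 in 20 groups. Genes named after their values were seen, Vpreb1, Cd2 and Cd3g among them, are not flagged here. In CD44hi, Vpreb1 read 7.69, 7.77, 7.68 and 8.30, and Cd2 read 5.49, 6.10, 6.01 and 6.09. Cd3g read 13.96, 13.96, 13.96 and 13.89 there. Replicate 4 of Vpreb1 and of Cd3g and replicate 1 of Cd2 were thus away from the others.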

How the results depend on the processing

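The Cd86 difference stayed between 4.35 and 6.14 in the alternatives that moved it by more than its spread: 4.82 with arrays numbered 1 and 3, 6.14 with arrays numbered 2 and 4, and 4.35 with probe set 1420404_at, against 5.48. Of 224 values of the other member probe sets under alternatives, 212 moved by less than the spread between replicates. Against 371 higher and 334 lower probe sets, the counts were 571 and 594 with the replicate block, 620 and 656 with array weights, 561 and 561 with arrays numbered 1 and 3, 191 and 194 among bright probe sets (fewer tested), and 201 and 160 at adjusted p under 0.01. When single arrays were left out, 200 to 338 probe sets were lower; without CD44lo replicate 2, 3 or 4 it was 214, 211 and 200. Against 5 higher and 2 lower pathway genes, array weights gave 8 higher, arrays numbered 1 and 3 gave 11 and 4, and adjusted p under 0.01 gave 3 and 1. When single arrays were left out, 3 to 6 pathway genes were higher and 1 to 2 lower; the lower were 1 when any array other than CD44hi replicate 4 was left out, and the higher 3 without CD44lo replicate 2. No called value changed sign. To 2 decimals, 20 values of results without a call did, 5 of member probe sets and 15 of named list genes, and 13 of the 20 came with arrays numbered 1 and 3 or 2 and 4. They include Pdcd1 (0.28 with 1 and 3, against -0.82), H2-Ab1 (0.54 with 2 and 4, against -0.16), Cd74 (-0.07 with 2 and 4, against 0.42) and Icosl 1419212_at (-0.04 with 2 and 4, against 0.34). With 1 and 3 alone H2-Ab1 was called lower (-0.86, limma adjusted p = 0.0192) and Cd74 higher (0.90, limma adjusted p = 0.0104). The Gapdh 3' to 5' difference of 0.12 lost its call in an exact test within numbers (p = 0.125), a replicate block added after the data were seen, which cannot go lower. Among 558 values of named list genes in alternatives, 17 lost a call, 14 gained one and 527 did neither. With arrays numbered 2 and 4 alone Map3k8, Vav1, Ptpn6 and Bcl2l1 kept their sign but were not called. Their limma adjusted p was 0.0759, 0.168, 0.175 and 0.0504. With arrays numbered 1 and 3 alone they were called. The cause of these shifts was not tested. The arrays carry no detection values, so levels near the bacterial controls bound what can be said of Cd80, Icos, Icosl and Pdcd1lg2.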

Other observations

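The protein-coding genes next to the members in the RefSeq assembly were looked up after the data were seen. Of 9 measured neighbours, 0 were called higher and 2 lower in CD44hi (limma, adjusted p under 0.05), against 1.88% and 1.63% of all genes. Ildr1, next to Cd86, was at 5.84 in CD44hi and 6.71 in CD44lo (log2 difference -0.87, SE 0.16, limma adjusted p = 0.0211), opposite in sign to Cd86. Casr, on the other side of Cd86, was at 6.18 in CD44hi and 5.88 in CD44lo (0.30, limma adjusted p = 0.192), of the same sign as Cd86. The other Casr probe set, within the control range, differed by -0.08. Jarid2, a Polycomb partner gene next to Cd83, was at 9.87 in CD44hi and 10.50 in CD44lo (-0.63, SE 0.12, limma adjusted p = 0.0287, or 0.0547 with the replicate block), opposite in sign to Cd83. Its other 2 probe sets differed by -0.53 and -0.24 and did not pass.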
